A study of Homo sapiens with 30 samples.

Results

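CDX1, CDX2, TBXT, EOMES, MIXL1, GATA6, GATA4, SOX17 and FOXA2 are 9 transcription factor genes of the caudal body axis, the primitive streak and the endoderm, fates other than the neural one that these cultures were steered towards. They were taken as a named list, and each of 10 lists of open chromatin regions was read over the GRCh38 gene body of each gene with 50 kb on each side. The 9 windows held 283 merged regions out of 493444 in all, where a merged region is a stretch in which peaks of the lists overlapped by at least 1 bp. Of the 283 regions, 198 had one of the 9 genes as their nearest protein-coding gene. The others lay closer to a neighbour such as PDGFRB and SLC6A7 beside CDX1, FLT3 and PDX1 beside CDX2, ACBD3 beside MIXL1 or NEIL2 beside GATA4, so a peak in a window is not evidence that it belongs to the named gene.

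Open chromatin was mapped with OmniATAC-seq, in which the transposase Tn5 cuts accessible DNA, on 50000 cells per library of H1, a human embryonic stem cell line. The labels give 30 libraries in 10 groups of 3 biological replicates. All groups were wild type. Undifferentiated cells (hPSC) were taken on day 0. DE, which stands here for definitive ectoderm and not definitive endoderm, was taken on day 1 after 24 hours in A8301 at 1 µM, trametinib at 250 nM, C59 at 1 µM and LDN193189 at 100 nM. These block, in that order, the activin and TGF-beta receptors, the kinase MEK, the secretion of WNT ligands and the BMP receptors. Every later group passed through that step. Anterior neural ectoderm (aNE) was taken on day 2 after A8301, LDN193189 and C59. Posterior neural ectoderm (pNE), also of day 2, had A8301, LDN193189, the retinoic acid receptor agonist TTNPB at 50 nM, FGF2 at 20 ng/mL and the tankyrase inhibitor XAV939 at 1 µM. Both day 2 media also held thiazovivin, which helps replated cells survive. Each day 2 population was then carried to day 4 in a telencephalon, midbrain or hindbrain medium, which gave aNE_T, aNE_M and aNE_H from the anterior and pNE_T, pNE_M and pNE_H from the posterior cells.

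The deposited data were 1 peak list per group that places each peak on a chromosome but gives it no score, height or value per library. No difference below therefore has a replicate error or a test, and each is set beside the same measure over all regions or all protein-coding genes. The lists compare as lists: a region with no peak may be closed, or may have missed the caller's threshold. The lists held from 167792 peaks (aNE) to 313095 peaks (pNE_H) on chromosomes 1 to 22, X and Y, and read depth was not given. In such bulk cultures, fewer cells with an open region and less opening per cell cannot be told apart. Cell identity could be read only as open gene ends. All 8 genes of a neural ectoderm list had a peak within 1 kb of a gene end in 9 of the 10 lists and 7 of them did in pNE_M. Of 8 pluripotency genes, all 8 had one in hPSC and DE, and 6 or 7 did in each later list. All 4 surface ectoderm genes had one in every list, and 3 of 4 neural crest genes did in each list but pNE_H, where all 4 did. Of all coding genes, 79.5% (aNE) to 83.3% (pNE_H) had one. Open gene ends therefore say little about cell type here.

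T-box, homeobox, GATA, SOX and forkhead factors of this kind specify mesoderm, endoderm and the posterior axis when nodal, BMP and WNT signals act on the epiblast. In pluripotent cells their promoters are typically CpG-rich and poised, that is accessible while the gene is little transcribed. An ATAC peak reports accessible DNA and not transcription.

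The starts of these genes were open in every list. All 9 genes had a peak in all 10 lists over a start window (from 250 bases before to 50 bases after the start site, for the 5 genes whose start was given) or, for CDX1, GATA4, SOX17 and FOXA2, within 1 kb of a gene end. Of 22199 start windows of protein-coding genes, 67.8% were open in all 10 lists, and 75.5% of 20037 protein-coding genes had a peak within 1 kb of either end in all 10. List by list, 74.4% of the start windows were open in hPSC, 73.7% in DE, pNE and aNE_T, 72.2% in aNE, 74.1% in aNE_M, 73.2% in aNE_H, 73.1% in pNE_T, 72.8% in pNE_M and 76.2% in pNE_H. Gene ends were open for 81.9% of coding genes in hPSC, 82.5% in DE, 79.5% in aNE, 80.7% in pNE and aNE_T, 81.2% in aNE_M, 80.6% in aNE_H, 80.5% in pNE_T, 80.1% in pNE_M and 83.3% in pNE_H. Start peaks are thus the common state of coding genes in these lists, and the 9 genes shared it. The 250 bases upstream of a start are shown for 3 genes: CDX2, whose start peak varied most in width among the 5 as a ratio (the widest list was 3.93 times the narrowest), MIXL1, where that ratio was least (1.11), and TBXT, which has one start open in all 10 lists and another in none. The TBXT pair was chosen after its values were seen. Sequences are from RefSeq on GRCh38.p14, written 5′ to 3′ in the direction of the gene, and capitals mark matches to the motifs named below.
CDX2, chr13:27969316-27969565, minus strand: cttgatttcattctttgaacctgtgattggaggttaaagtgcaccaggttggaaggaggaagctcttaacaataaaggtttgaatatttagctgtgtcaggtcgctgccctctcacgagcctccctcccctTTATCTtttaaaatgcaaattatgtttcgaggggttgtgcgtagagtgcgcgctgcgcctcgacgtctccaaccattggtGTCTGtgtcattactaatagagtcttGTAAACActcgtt
MIXL1, chr1:226223414-226223663, plus strand: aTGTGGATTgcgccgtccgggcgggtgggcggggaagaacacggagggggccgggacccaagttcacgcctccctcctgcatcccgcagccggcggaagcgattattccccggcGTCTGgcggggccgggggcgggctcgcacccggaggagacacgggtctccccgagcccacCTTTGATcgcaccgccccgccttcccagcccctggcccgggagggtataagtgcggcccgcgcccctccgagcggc
TBXT, open start, chr6:166167852-166168101, minus strand: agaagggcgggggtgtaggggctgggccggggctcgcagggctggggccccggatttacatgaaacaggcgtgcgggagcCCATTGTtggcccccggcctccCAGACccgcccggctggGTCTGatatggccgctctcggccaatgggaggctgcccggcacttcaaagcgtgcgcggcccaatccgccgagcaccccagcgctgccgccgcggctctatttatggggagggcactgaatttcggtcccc
TBXT, start without a peak, chr6:166168656-166168905, minus strand: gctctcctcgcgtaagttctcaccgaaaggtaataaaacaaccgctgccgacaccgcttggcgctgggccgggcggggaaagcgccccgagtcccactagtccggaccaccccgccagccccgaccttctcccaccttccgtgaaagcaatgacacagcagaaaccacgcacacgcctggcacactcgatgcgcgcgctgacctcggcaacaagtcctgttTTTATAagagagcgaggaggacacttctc

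The upstream stretches differed in base composition more than in whether they were open. MIXL1 had 74% G and C with 30 CpG pairs and the open TBXT start 69.6% with 22, while CDX2 had 45.2% with 10 CpG pairs. The median over the 22199 windows was 62% with 16 CpG pairs, so the CDX2 start was open in all 10 lists with a composition below that median. EOMES (62%, 19 CpG pairs) and GATA6 (64.4%, 16 CpG pairs) lay near it. The TBXT start without a peak had 60.8% and 23 CpG pairs, which is no fewer CpG pairs than the open start had.

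Motifs were searched on both strands of the 250 bases as exact letters, and a match is a description and not a binding site. CAGAC (SMAD) matched in CDX2, GATA6, MIXL1 and the open TBXT start, where it matched 2 times, and 37.2% of all windows held it. In CDX2, a motif of GATA factors, written AGATAA and held by 7.09% of windows, matched at position -119 from the start, and a forkhead motif, TGTTTNC (13.0%), at -13. In MIXL1, ATCAAAG (TCF/LEF, 1.78%) matched at -76 and AATNNACA (FOXH1, 7.55%) at -249. The open TBXT start had ACAATNG (SOX, 4.62%) at -170. A TATA box, searched as the letters TATAAA (9% of windows), matched in EOMES at -31 and in the TBXT start without a peak at -29. Both TATAAA matches were on the strand opposite to the gene, so neither reads as a TATA box in the direction of the gene. GGTGTGA (T-box, 2.57%) matched in none of the 6 stretches. No 2 of these motifs overlapped in a match.

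Start peaks varied in width and not in presence. The CDX2 start region (chr13:27968364-27969717) held 528 bp of peak in hPSC and 253 bp in DE, then 708 in aNE and 924 in pNE, and on day 4 899, 994, 934, 911, 601 and 684 bp in aNE_T, aNE_M, aNE_H, pNE_T, pNE_M and pNE_H. Each of the 8 later lists was wider there than hPSC and DE. The MIXL1 start region (chr1:226223142-226224292) was between 1015 and 1131 bp in all 10 lists. Peak width depends on the caller's threshold and on depth as well as on the DNA that is open.

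**Figure D1:**
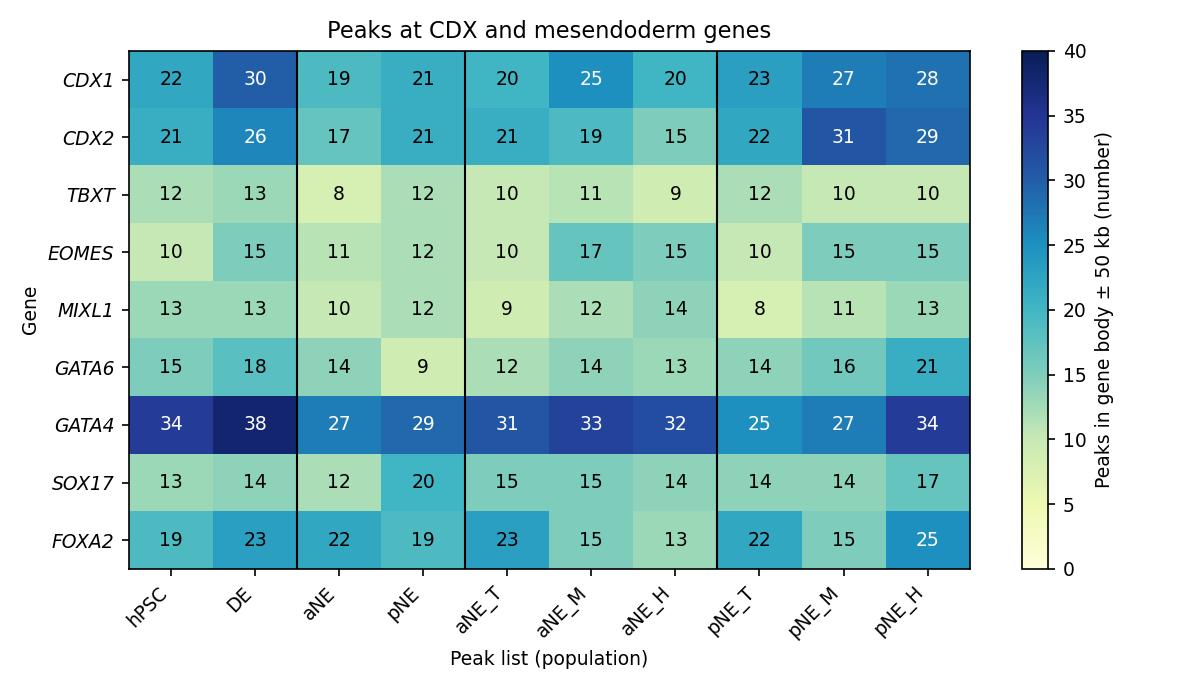
Number of peaks in each peak list (columns) in the gene body with 50 kb on each side of each of the 9 genes (rows), with the number printed in each cell and vertical lines between the stages. GATA4, the longest window, had the most peaks in 9 of 10 lists, and aNE had fewer peaks than DE at every gene, though per 100000 list peaks 6 of the 9 genes had more in aNE.

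The hPSC list had 159 peaks in these windows, DE 190, aNE 140 and pNE 155. The day 4 numbers were 151 in aNE_T, 161 in aNE_M, 145 in aNE_H, 150 in pNE_T, 166 in pNE_M and 192 in pNE_H. DE and pNE_H were the highest and aNE the lowest, the same lists that were longest and shortest as wholes. Per 100000 peaks of the list the order was another one: aNE had the most (83.4) and pNE_H the fewest (61.3), and hPSC (74.4), DE (76.7) and pNE (74.9) lay between them.

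From hPSC to DE, 8 of the 9 genes had more peaks and MIXL1 had 13 in both, against 65.9% of 19211 protein-coding genes with more. From DE to aNE all 9 had fewer, where 92.9% of genes did, and from DE to pNE 8 had fewer, where 80.7% did. The exception was SOX17, with 14 peaks in DE and 20 in pNE. The median log2 ratio of the 9 genes was 0.26 from hPSC to DE (0.16 over all genes), -0.43 from DE to aNE (-0.49) and -0.30 from DE to pNE (-0.34). The ratios were taken after 0.5 was added to each count. These steps were close to those of coding genes in general. They also followed list length: per 100000 list peaks, 5 of the 9 genes had more in DE than in hPSC (42.9% of coding genes), 6 had more in aNE than in DE (56.5%) and 3 had more in pNE than in DE (38.5%). FOXA2 then had 9.29 in DE and 13.1 in aNE, and only CDX1, CDX2 and TBXT had fewer in aNE.

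On day 4 the genes did not move as a group with the medium. Against aNE, 6 of the 9 genes had more peaks in aNE_T (62% of genes), 7 in aNE_M (69.5%) and 6 in aNE_H (58.9%). Against pNE, 4 had more and 4 fewer in pNE_T (41.6% and 44.3%), 4 more and 5 fewer in pNE_M (41.3% and 43.9%), and 7 more and 2 fewer in pNE_H (83% and 9.07%). Per 100000 list peaks only GATA6 had more in pNE_H than in pNE (26.7% of coding genes). CDX2 was the only one of the 9 with more peaks in every pNE-derived list (22, 31 and 29) than in every aNE-derived list (21, 19 and 15), a pattern seen at 9.29% of coding genes. None of the 9 had fewer in every pNE-derived list, which held for 1.03%. Per 100000 list peaks CDX2 no longer stood apart. GATA6 was then above in every pNE-derived list (5.26% of coding genes), and GATA4 and SOX17 were below in every one (19%).

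Regions open in undifferentiated cells were mostly still open on day 1. The windows held 144 regions open in hPSC, and 119 of them (82.6%, 95% Wilson interval 75.6 to 88.0) had a peak in DE, while 25 did not (17.4%, against 21.8% of all 200255 hPSC regions). Of the 168 DE regions in these windows 49 (29.2%) had no hPSC peak, against 32.3% of all DE regions. These intervals allow for the number of regions alone and hold no replicate error.

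On day 2 aNE kept 102 of the 144 (70.8%, 62.9 to 77.6), and 38.9% of all hPSC regions were without a peak there. The day 2 posterior list kept 105 (72.9%, 65.1 to 79.5), where 35.1% of all were lost. So the losses at these genes, 29.2% and 27.1%, were below the background in both. Neither day 2 list stood apart from the other at these genes.

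Among the day 4 lists aNE_H kept the fewest, 97 (67.4%, 59.3 to 74.5, background lost 39.3%). Next were pNE_T and pNE_M with 101 each (70.1%, 62.2 to 77.0), where 42.8% of all hPSC regions were lost in each. For aNE_T the number was 107 (74.3%, 66.6 to 80.7, background lost 36.6%). The most were kept in aNE_M and pNE_H, with 110 each (76.4%, 68.8 to 82.6), against a background loss of 35.6% and 32.2%. The lists share the same 144 regions and are 1 per group, so this order describes the lists and was not tested.

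**Figure D2:**
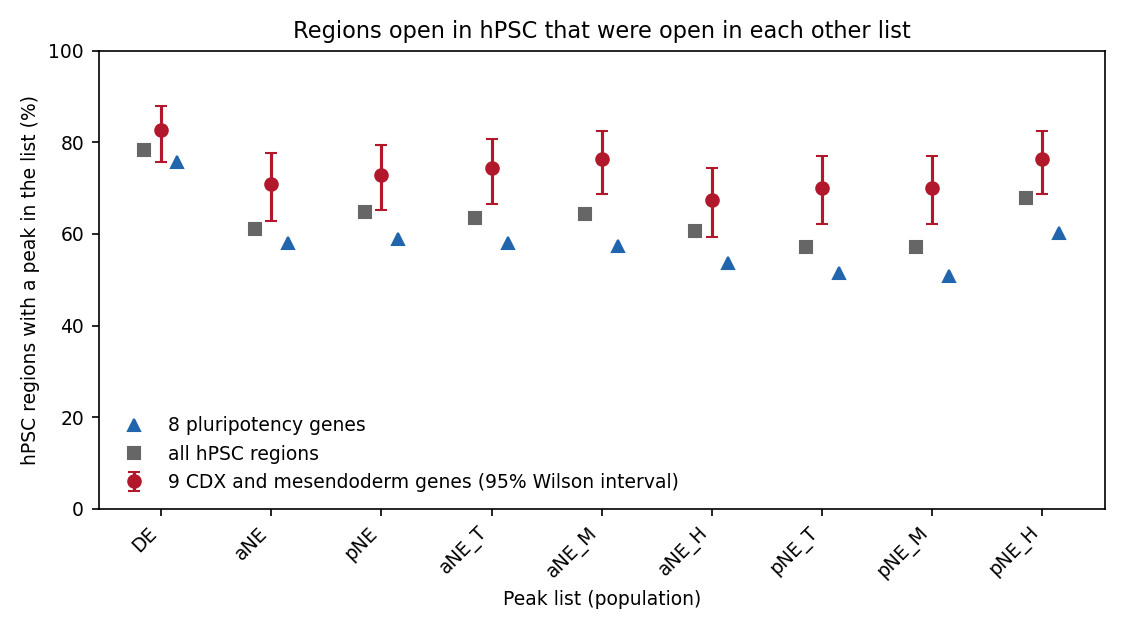
Share of hPSC regions (percent, vertical axis) that had a peak in each other list (horizontal axis) for the 9 genes (circles, bars are 95% Wilson intervals over 144 regions), for all 200255 hPSC regions (squares) and for 8 pluripotency genes (triangles). The circles lie above the squares in all 9 lists, from 82.6% in DE to 67.4% in aNE_H.

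The share kept was above that of all hPSC regions in all 9 lists, by 4.40 to 13.0 percentage points. At 8 pluripotency genes 75.7% of hPSC regions were kept in DE, 58.1% in aNE and 50.7% in pNE_M. For 24 other streak, endoderm and caudal genes 81.1% were kept in DE, 64.6% in aNE and 62.2% in pNE_M. The 9 genes lay above both in these lists. They did not lie above every list of genes: 4 neural crest genes, with 63 hPSC regions, kept 85.7% in DE, 73.0% in aNE and 76.2% in aNE_H, and the 11 streak genes among the 24 kept 84.6% in DE. Away from gene ends, where starts no longer count, 81.4% of 113 hPSC regions more than 1 kb from any coding gene end were kept in DE and 62.8% in aNE_H, against 76.8% and 58.0% of all such regions. After each list was thinned at random to 167792 peaks, DE alone turned: 49.5% were kept at the 9 genes and 54.6% over all regions.

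Width marked which regions persisted. Of the 144 hPSC regions, 82 (56.9%) were wider than 300 bp in hPSC, against 46.8% of all hPSC regions. Of these 82, DE kept 81, aNE 76, pNE 74, aNE_T 77, aNE_M 75, aNE_H 71, pNE_T 74, pNE_M 70 and pNE_H 75. The other 62 regions, of 300 bp or less, were kept 38 times in DE, 26 times in aNE and aNE_H, and 35 times in aNE_M and pNE_H. Among the wide regions the shares were above those of all wide hPSC regions in every list (98.8% against 95% in DE, 85.4% against 77.6% in pNE_M). Among the narrow ones they were above the background in 7 of 9 lists, by up to 10.8 points in pNE_M (50% against 39.2%), and below it in DE (61.3% against 63.5%) and aNE_H (41.9% against 43.1%).

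The DE list was read in the same way. It had 168 regions at these genes, of which aNE kept 117 (69.6%, where 39.1% of all DE regions were lost) and pNE 112 (66.7%, background lost 37.6%). On day 4 the numbers were 120 in aNE_T (background lost 36.2%), 119 in aNE_M (37.2%), 105 in aNE_H (42.3%), 111 in pNE_T (44.7%), 109 in pNE_M (45.8%) and 121 in pNE_H (34.5%). As from hPSC, aNE_H held the fewest, and pNE_H, the longest list, held the most. From aNE, which had 124 regions, 110 were kept in aNE_T (background lost 15.3%), 108 in aNE_M (18.4%) and 94 in aNE_H (24.8%). From pNE, with 135, 106 were kept in pNE_T (29.5%), 108 in pNE_M (28.1%) and 117 in pNE_H (14.1%).

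Few regions were limited to the early lists. Of 193 regions open in hPSC or DE, 35 (18.1%) had no peak in any of the 8 later lists, against 23.1% of all 274981 such regions. They were 13 of hPSC alone, 19 of DE alone and 3 of both. They were narrow, from 112 to 586 bp with a median of 190 bp in the wider of the early lists, against a median of 170 bp over all such regions. The 79 early regions open in all 8 later lists had a median of 657 bp, against 586 bp over all such regions, so the contrast in width was a general one. CDX1 had 8 of the 35, GATA4 6, TBXT and GATA6 5 each, CDX2, EOMES and FOXA2 3 each, MIXL1 2 and SOX17 none. The windows of these genes held, in that order, 44, 52, 24, 33, 38, 21, 34, 18 and 19 regions of any kind. The counts therefore also reflect how many regions a window held, and no gene was compared with the 23.1% by itself.

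Of the 283 regions 73 (25.8%) were open in all 10 lists, against 16.5% of all regions. Related gene lists were alike in this, with 28.8% at 11 streak genes and 27.9% at 10 endoderm genes. Lists of other fates also lay above all regions, from 20.8% at 8 neural genes to 25.6% at 4 surface ectoderm genes. The excess was thus not particular to these 9 genes or to related ones. More than 1 kb from any coding gene end, 20.9% of regions at the 9 genes were open in all 10 lists. The neural list had 19.8% there and the surface ectoderm list 24.5%. In the windows of the 9 genes 78 (27.6%) were open in 1 list only, against 33.5%. All 3 pNE-derived and no aNE-derived day 4 list had a peak at 6 regions (2.12%, against 2.33%). The reverse held at 1 region (0.353%, against 0.633%). Of the 283, 90 regions (31.8%) had no peak in hPSC or DE, against 44.3% of all regions. Peaks on day 4 only were found at 69 (24.4%, against 35% of all), and 16 of these (5.65%, against 10.6%) were in pNE_H only. The regions described next were taken by a rule (widest of each class) unless they are said to have been chosen after their values were seen.

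CDX1 and CDX2 encode caudal-type homeobox factors that pattern the posterior axis and the intestine. At CDX1 (chr5:150166778-150184558) the peak over the lower-coordinate end of the gene, chr5:150166507-150168396, was present in all lists, between 1208 bp in DE and 1694 bp in hPSC. Its 8 early regions were 7 of DE and 1 of hPSC, and the widest was 325 bp inside CDX1 (chr5:150173161-150173485). The window had 30 peaks in DE, the most of any list, and 19 in aNE, the fewest. A region inside the neighbour SLC6A7 (chr5:150194839-150196026) was open in the 3 pNE-derived day 4 lists alone, with 515, 372 and 1188 bp in pNE_T, pNE_M and pNE_H.

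A pair of regions inside PDGFRB, the receptor gene next to CDX1, went opposite ways and was chosen after the values were seen. At chr5:150143611-150144864 hPSC had 1005 bp and DE 401, aNE 127 and pNE 671, and the day 4 lists had 410, 278, 0, 262, 0 and 333 bp. At chr5:150146915-150147732, hPSC, DE and aNE had none, pNE had 391 bp, and the day 4 lists had 235, 543, 490, 648, 542 and 818 bp. The second was thus present in all 6 day 4 lists and absent from the early ones.

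CDX2 (chr13:27960918-27969315) kept 19 of its 20 hPSC regions in DE, 14 in aNE and in pNE, 13 in aNE_H and 18 in pNE_H. A wide region inside the gene, chr13:27965851-27967096, differed most between early and late lists and was chosen after its values were seen. The hPSC list had 1226 bp of peak there, DE 973, aNE 797 and pNE 566. The day 4 lists had 386 bp in aNE_T, 359 in aNE_M, none in aNE_H and pNE_T, 985 in pNE_M and 109 in pNE_H. The early lists were therefore the widest and pNE_M lay with them, while the start of the same gene was wider in later lists.

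Beside CDX2, a region inside URAD (chr13:27980390-27980946) was open in hPSC (243 bp), DE (384 bp) and the 3 pNE-derived day 4 lists (387, 193 and 543 bp), and in no other list. That region had no peak in aNE, pNE or the 3 aNE-derived lists. A region inside FLT3 (chr13:28010643-28010861) had 175 bp in hPSC and 208 bp in DE and none later. Outside the gene on the lower-coordinate side, chr13:27953097-27954853 was open in all lists with 1192 to 1657 bp.

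**Figure D3:**
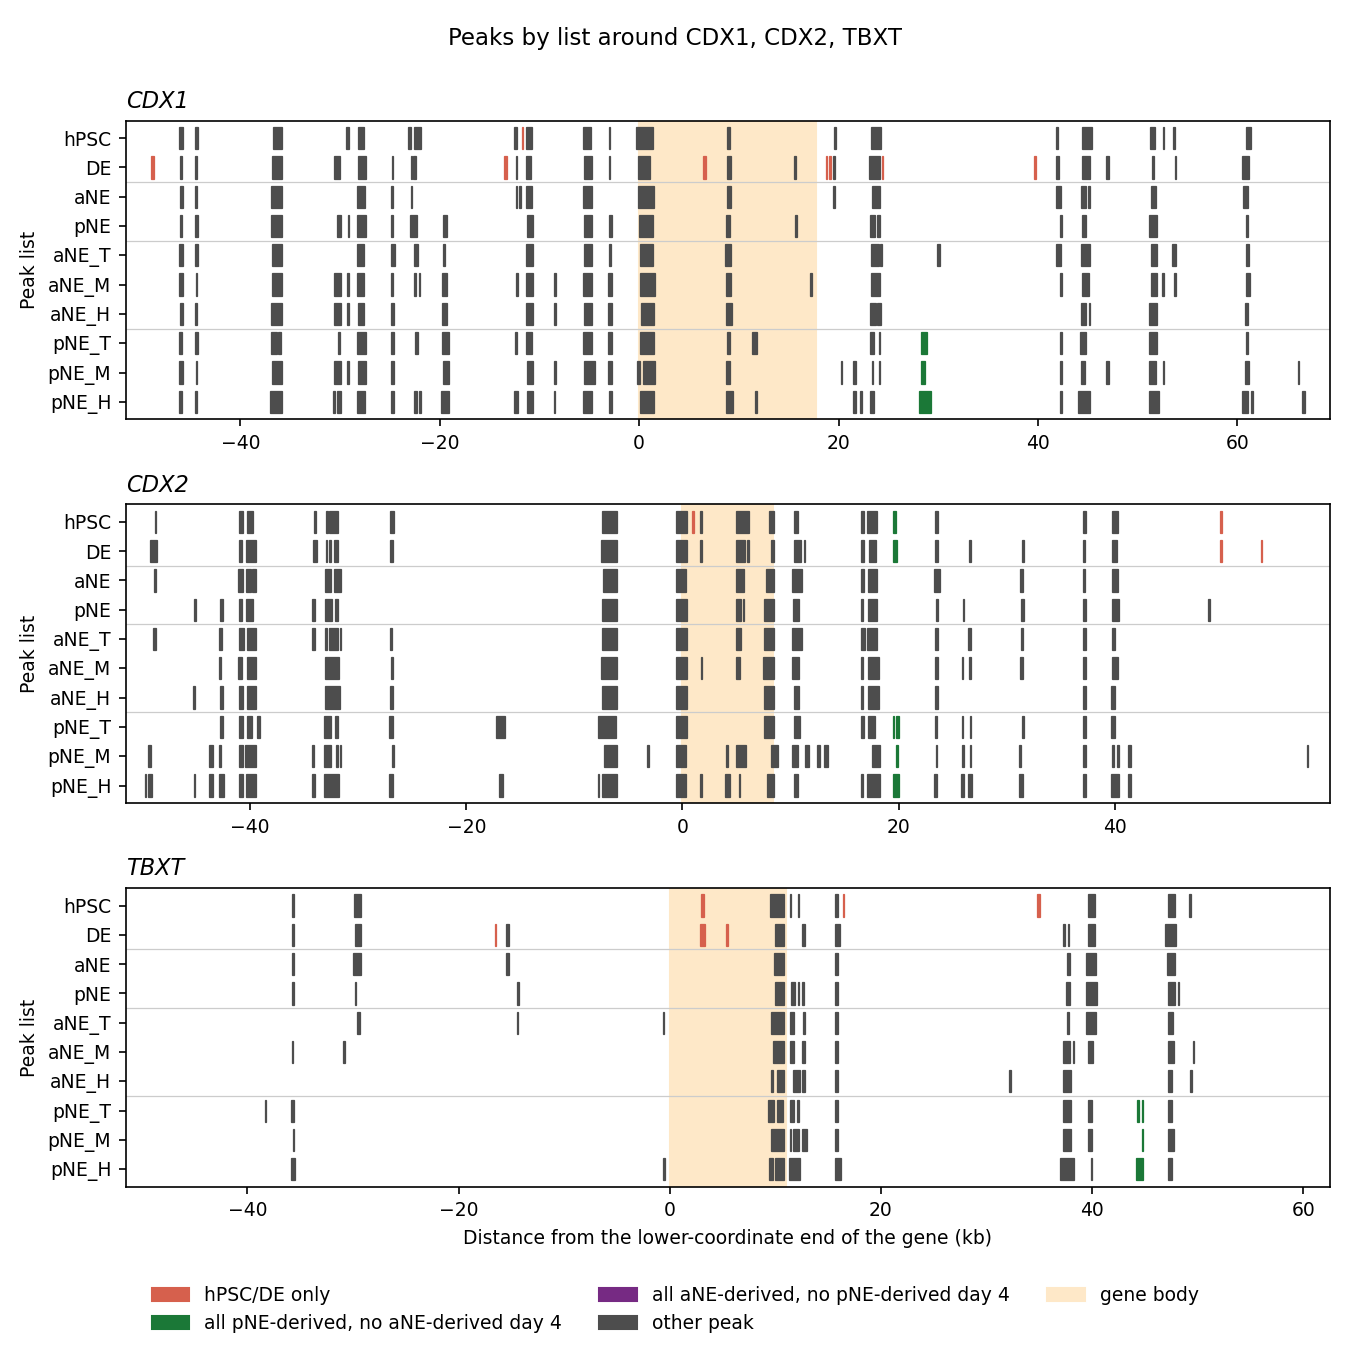
Peaks of each list (rows) against the distance in kb from the lower-coordinate end of CDX1, CDX2 and TBXT, with the gene body shaded, regions of hPSC or DE with no later peak in red and regions of all 3 pNE-derived and no aNE-derived day 4 list in green. At TBXT the region 29.2 kb below the gene has peaks in hPSC, DE, aNE, pNE and aNE_T and in no lower row, where aNE_M has a separate peak slightly farther out.

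TBXT (brachyury) is the T-box factor that marks the primitive streak and notochord. Its window (gene at chr6:166157656-166168655) held no other coding gene. It kept 7 of its 11 hPSC regions in DE and in pNE, 5 in aNE_H and 6 in each of the other 6 lists. In DE that was 63.6%, against 78.2% of all hPSC regions. The share was near the background in pNE (63.6% against 64.9%) and in pNE_T and pNE_M (54.5% against 57.2% in each). Its share was the smallest of the 9 genes in every list but pNE, where GATA6 kept 57.1%, and pNE_T, where MIXL1 kept 50%. Only 3 of its 24 regions were open in all 10 lists. The widest of them spanned the open start (chr6:166166966-166168508), with 1319 bp in hPSC, 860 in DE, 925 in aNE, 883 in pNE and 1260, 1073, 812, 1231, 1160 and 1225 bp on day 4.

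A distal TBXT region, chr6:166127694-166128444, lay 29.2 kb outside the gene and was chosen after its values were seen. It had 659 bp in hPSC, 571 in DE, 711 in aNE, 148 in pNE and 291 in aNE_T, and no peak in aNE_M, aNE_H, pNE_T, pNE_M or pNE_H. Inside the gene, chr6:166160557-166160951 had 303 bp in hPSC and 395 in DE and nothing in any later list. On the far side, chr6:166194577-166195970 was absent from hPSC, between 229 and 411 bp in DE, aNE, pNE and aNE_T, and between 675 and 1345 bp in the other 5 lists. The same 5 lists thus lacked the first of these regions and had the last one widest.

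Between that region and the far edge of the window, chr6:166201841-166202487 was open in the 3 pNE-derived day 4 lists alone (327, 149 and 644 bp). The region just upstream of the TBXT starts, chr6:166168983-166169962 inside the long noncoding RNA gene LNCDAT, had 259 bp in hPSC, none in DE and aNE, 545 in pNE and 380, 399, 628, 551, 777 and 977 bp on day 4. This region and chr6:166194577-166195970 were chosen after their values were seen.

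EOMES, the T-box factor of the streak and early endoderm, kept at least 7 of its 9 hPSC regions in every list. All 9 of its hPSC regions were kept in pNE, aNE_M, aNE_H and pNE_M, and 7 in aNE, the fewest. Its start region (chr3:27720834-27722834, inside a gene at chr3:27715953-27722713) held 1900 bp in hPSC and 1545 in DE, 1725 in aNE and 1803 in pNE, and 1848, 1604, 1811, 1616, 1407 and 1747 bp on day 4. At chr3:27680631-27681795, 34.2 kb outside the gene, all lists had 933 to 1090 bp. Its 3 early regions were of DE alone and 191 to 194 bp wide.

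MIXL1, a paired-type homeobox gene of the streak, sits at chr1:226223664-226227060 between ACBD3 and LIN9, and 7 of its 18 regions had it as nearest gene. Of 12 hPSC regions DE kept 9, aNE 8 and pNE 10. On day 4 the numbers were 7, 9 and 10 in aNE_T, aNE_M and aNE_H and 6, 8 and 10 in pNE_T, pNE_M and pNE_H. In either lineage the telencephalon list kept the fewest of these 12 and the hindbrain list the most, by a few regions. Over all hPSC regions aNE_T, aNE_M and aNE_H kept 63.4%, 64.4% and 60.7%, so the anterior order there was another one. The posterior lists pNE_T, pNE_M and pNE_H kept 57.2%, 57.2% and 67.8% of all, and pNE_H was the longest list. The order at MIXL1 was seen in the values and was not tested. A region 10.4 kb outside the gene (chr1:226212869-226213257) was open in the pNE-derived day 4 lists alone, with 210, 215 and 389 bp.

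**Figure D4:**
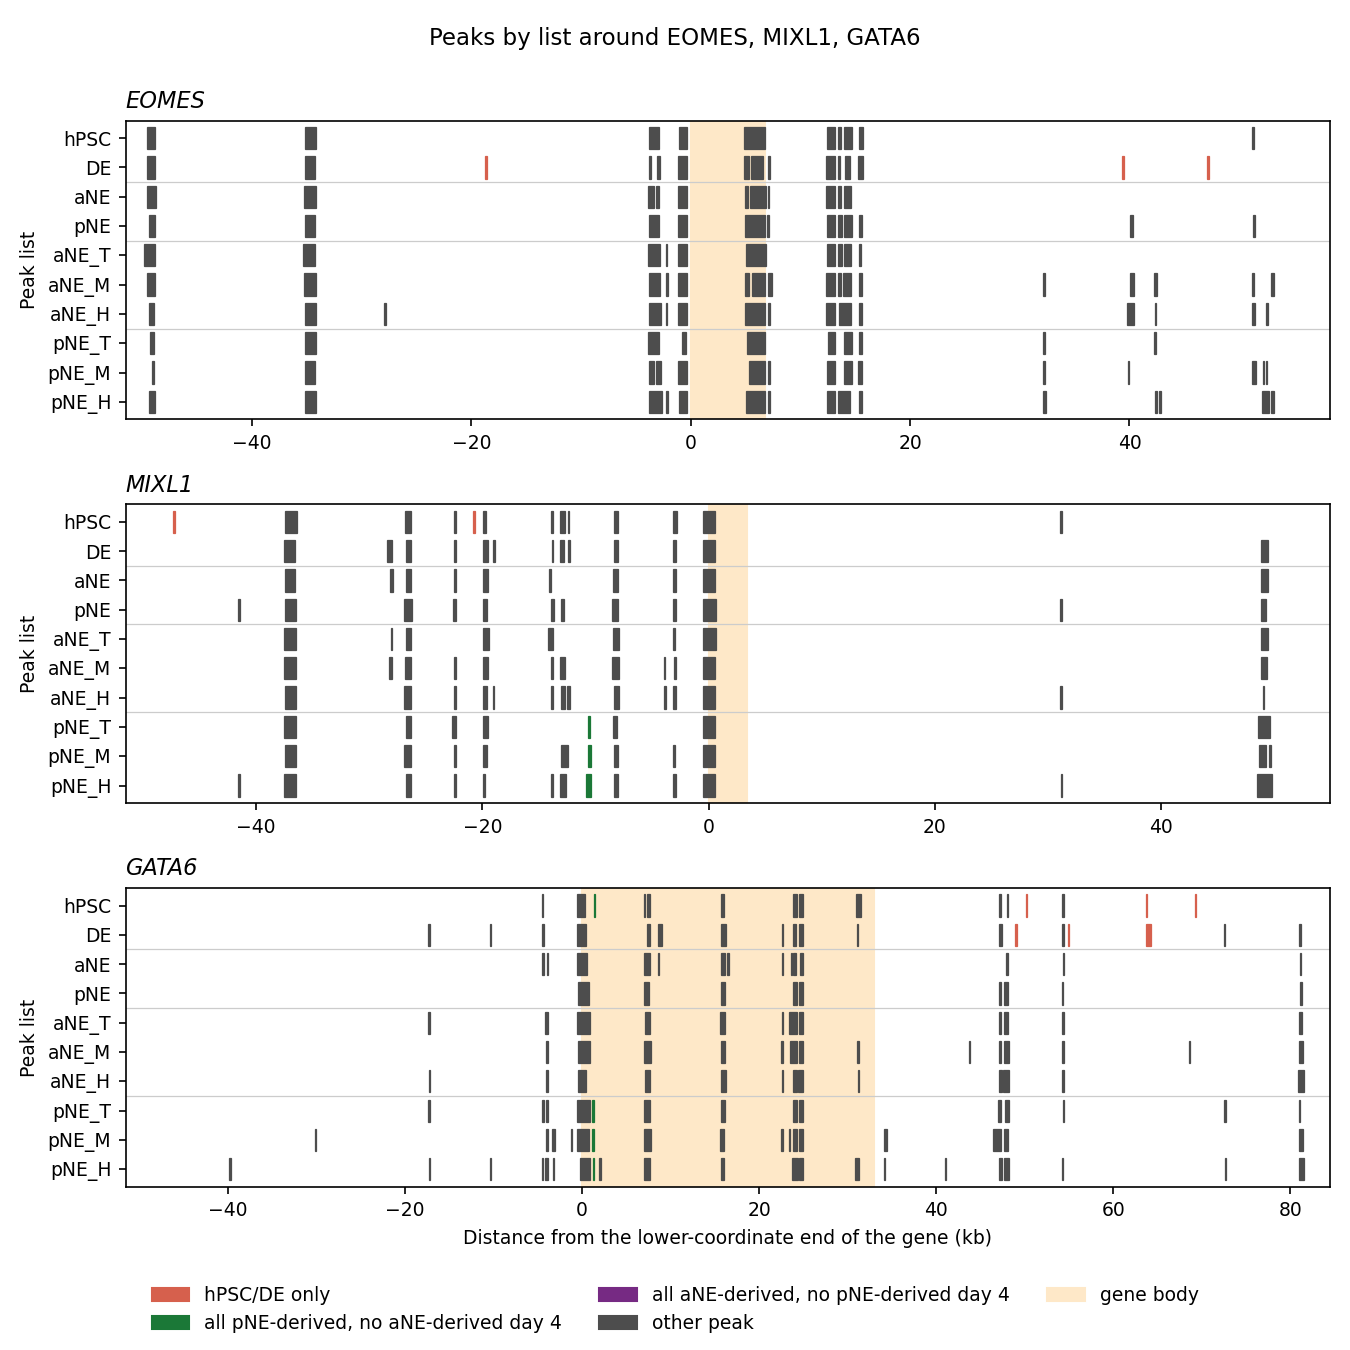
Peaks of each list (rows) against the distance in kb from the lower-coordinate end of EOMES, MIXL1 and GATA6, drawn and coloured as for CDX1, CDX2 and TBXT. The start peaks of EOMES, MIXL1 and GATA6 stand in every row, and GATA6 has its red marks, regions of hPSC or DE with no later peak, on the higher-coordinate side of the gene.

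GATA6 and GATA4 encode zinc finger factors of the endoderm and heart. GATA6 (chr18:22169589-22202528) had no other coding gene in its window and 9 peaks in pNE, its lowest number, against 18 in DE and 21 in pNE_H. Of its 14 hPSC regions 10 were kept in DE, 8 in aNE, pNE, aNE_T and pNE_M, 9 in aNE_M and aNE_H, 10 in pNE_T and 11 in pNE_H. Its start region (chr18:22169032-22170545) was open in all lists, between 879 bp in hPSC and 1481 bp in aNE_T. A region 30.7 kb outside the gene in the noncoding gene LOC105372017, chr18:22233235-22233815, had 194 bp in hPSC and 581 bp in DE and none later, the widest DE peak among the 35 early regions. All 5 early regions of GATA6 lay on that higher-coordinate side of the gene.

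In the same noncoding gene, chr18:22217164-22217836 had 132 bp in hPSC, none in DE, 262 in aNE, 537 in pNE and 444 to 640 bp in the 6 day 4 lists. Inside GATA6, chr18:22200445-22201056 had 540 bp in hPSC, 125 in DE, none in aNE and pNE, and 268 bp in aNE_M, 126 in aNE_H and 459 in pNE_H. This pair was chosen after its values were seen. So the hPSC region inside the gene had a peak again in 3 of the 6 day 4 lists, aNE_M, aNE_H and pNE_H. The midbrain list pNE_M and both telencephalon lists had none. How often all regions show this pattern was not counted.

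GATA4 (chr8:11676935-11760002) had 52 regions, the most of the 9 windows, and kept 26 of 32 hPSC regions in DE, 24 in aNE, 22 in pNE and 21 in aNE_H and pNE_M, the fewest. A pair of regions inside the gene, chosen after their values were seen, were wide in the early lists. At chr8:11709738-11710393 hPSC had 616 bp, DE 656, aNE 365, aNE_T 145 and aNE_H 132, and pNE, aNE_M and all 3 pNE-derived lists had none. At chr8:11697393-11698209 hPSC had 752 bp, DE 482, aNE 407, pNE 315, aNE_T 544, aNE_M 256 and pNE_T 510, and the other 3 lists had none. The single region of the 283 that was open in all aNE-derived and no pNE-derived day 4 list also lay inside GATA4, at chr8:11742543-11742896, with 203, 122 and 354 bp and 212 bp in pNE.

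The lists also name peaks on a fix-patch scaffold of chromosome 8 that repeats part of the GATA4 window. Of the 310 GATA4 window peaks summed over the 10 lists, 141 (45.5%) had a counterpart within 50 bp of a single offset in reverse orientation, from 10 to 19 per list. The other 8 genes had 1 to 4 per list. Reads that match both copies can be lost or split by an aligner, and the part of this in the GATA4 peaks was not tested. Without GATA4, 67.9% to 83% of hPSC regions were kept, depending on the list.

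SOX17, the SOX factor of definitive endoderm, was the only one of the 9 genes with no region limited to the early lists. That rests on 10 early regions alone, where 23.1% of all early regions were so limited. Of its 10 hPSC regions 10 were kept in DE, aNE_T and aNE_M, 9 in aNE, pNE and pNE_T, 8 in pNE_M and pNE_H, and 7 in aNE_H. The region over the gene (chr8:54457808-54460024, gene at chr8:54457935-54460892) held 2137 bp of peak in hPSC and 1673 to 2054 bp in the other 9 lists. These are summed widths. A single hPSC peak came within 1 kb of both gene ends, while aNE had 880 bp within 1 kb of the lower-coordinate end and 981 bp within 1 kb of the other. The region stopped short of the higher-coordinate end in every list. A region 42.3 kb outside the gene, chr8:54414673-54415627, had 699 bp in hPSC, 932 in DE, 208 in aNE, 359 in pNE and 177 to 665 bp on day 4, and was chosen after its values were seen. All lists had a peak there, and DE and hPSC had the widest.

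FOXA2, the forkhead factor of endoderm, node and floor plate, kept 12 of 15 hPSC regions in DE, 10 in aNE and pNE, 11 in aNE_T, 10 in pNE_T and 9 in each of the other 4. Its window (gene at chr20:22580998-22585490) held no other coding gene. The peak over the higher-coordinate end, chr20:22584134-22585501, was in all lists, with 541 bp in DE, 602 in aNE_H and up to 1315 in pNE_H, and no list had a peak within 1 kb of the other end. Its widest early region, chr20:22556385-22556970 with 586 bp in hPSC, was also the one wide hPSC region of the 82 that DE lacked.

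At 3 FOXA2 regions both telencephalon lists and neither midbrain list had a peak, of 4 such regions at all 9 genes (1.41%, against 1.36% of all regions). The reverse held at 8 regions (2.83%, against 2.42%), of which CDX1 and EOMES had 3 each and FOXA2 none. Both shares over the 9 genes were near the background. The widest of the 3 was chr20:22619439-22621014, 33.9 kb outside the gene: 626 bp in hPSC, 1171 in DE, 1088 in aNE, 641 in pNE, 562 in aNE_T, none in aNE_M, 225 in aNE_H, 1551 in pNE_T, none in pNE_M and 1133 in pNE_H. Inside the noncoding gene LINC00261, chr20:22562039-22562980 had none in hPSC, 119 bp in DE and 625 to 858 bp in all 8 later lists. These regions were chosen after their values were seen, and no test of the medium was possible with 1 list per group.

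**Figure D5:**
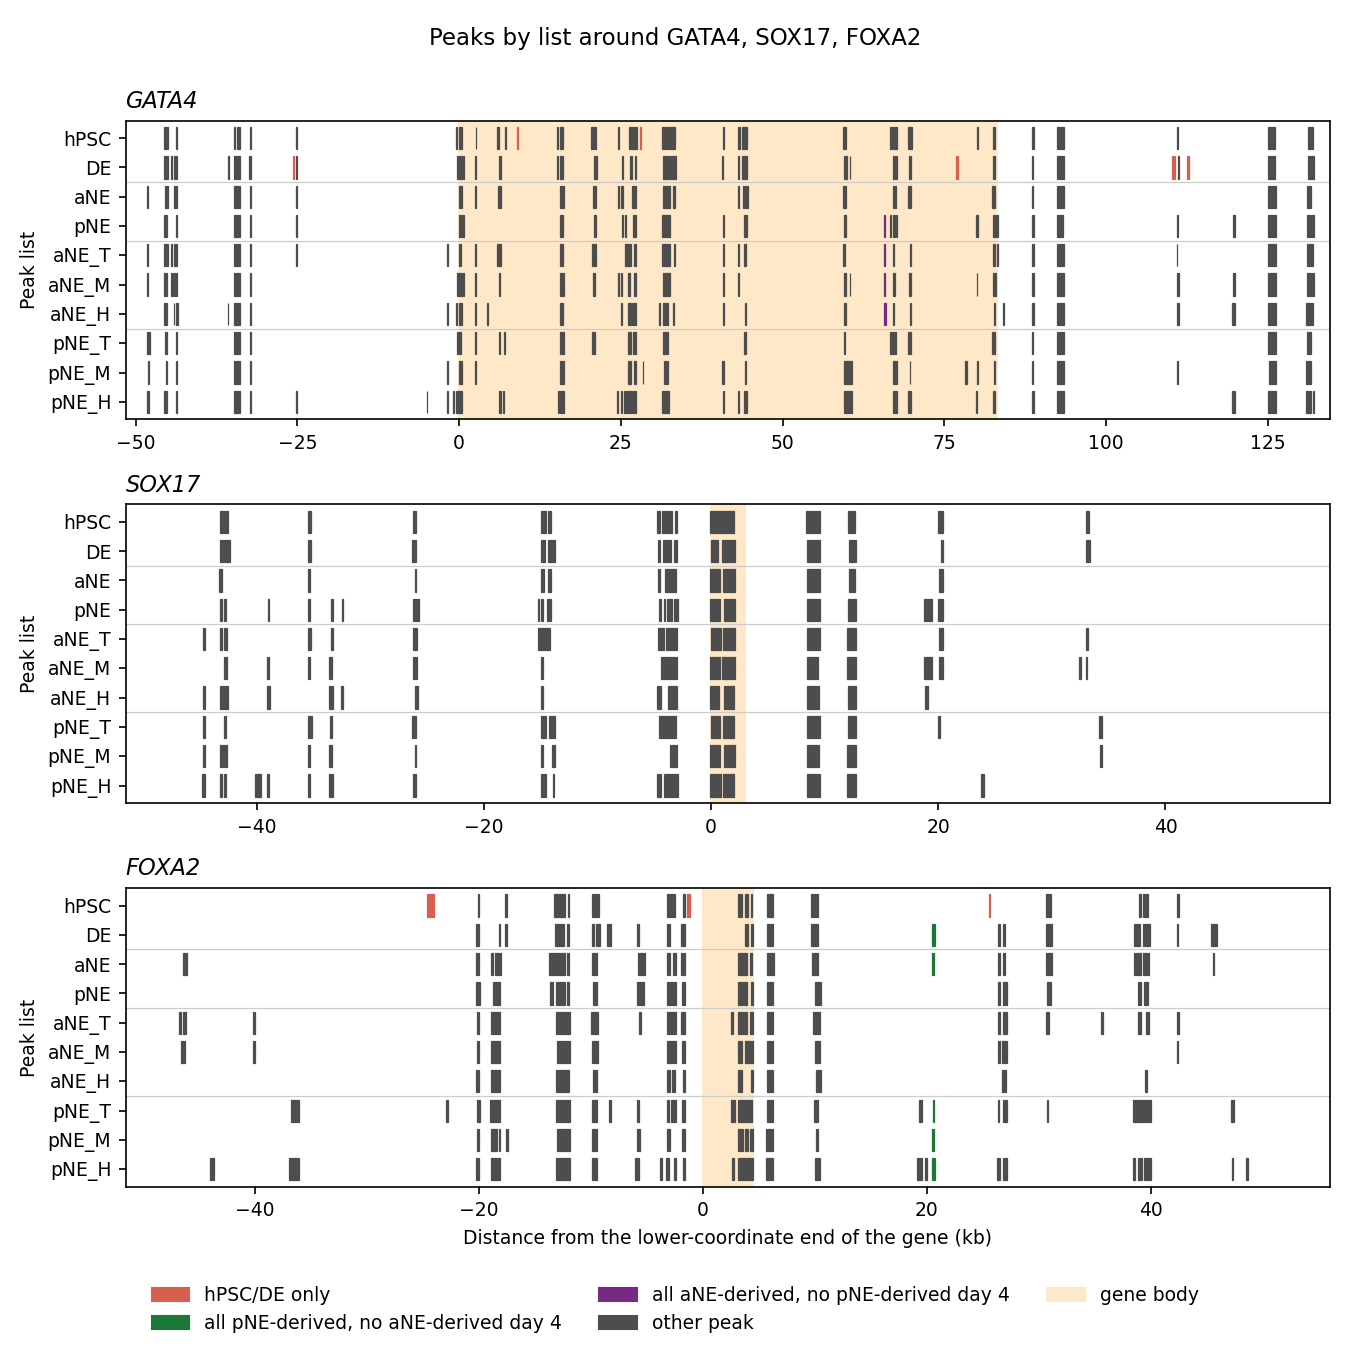
Peaks of each list (rows) against the distance in kb from the lower-coordinate end of GATA4, SOX17 and FOXA2, drawn and coloured as for CDX1, CDX2 and TBXT, with a region of all 3 aNE-derived and no pNE-derived day 4 list in purple. SOX17 has no red mark, and the FOXA2 peaks near 39 kb are missing from aNE_M and pNE_M.

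Related genes that were listed but are not among the 9 were open at their ends to a like extent. Of 11 streak genes (GSC, LHX1, MESP1, MESP2, TBX6, MSGN1, EVX1, WNT3, WNT3A, NODAL and FGF8), 10 had a peak within 1 kb of an end in hPSC, 8 in DE and 9 to 11 in the later lists. Of 10 endoderm genes (FOXA1, FOXA3, HNF4A, GATA5, SOX7, SOX18, CXCR4, CER1, HHEX and PDX1), 9 had one in hPSC, aNE and pNE and 10 in the other 7 lists. The 3 caudal genes CDX4, HOXA13 and HOXB13 had one in all lists.

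For each member, the coding gene was sought whose window counts per 100000 list peaks ran most like its own over the 10 lists. By Pearson's r, MIXL1 was nearest to SBNO2 (0.959), GATA4 to LTO1 (0.981), FOXA2 to ATPAF1 (0.956), TBXT to ISCA1 (0.936), CDX2 to C8orf88 (0.933), EOMES to RPL38 (0.928), CDX1 to PSMB1 (0.909), SOX17 to DPM1 (0.906) and GATA6 to SH3BP5 (0.904). Each is the highest among 19176 to 19204 ranked coding genes more than 1 Mb away with at least 5 regions, over 10 points that share list length. With so many genes searched, a high r at a gene that is not a member was to be had in advance. The pairs are therefore a description and say nothing on whether members ran alike.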

How the data were processed

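Each of the 10 groups has 1 deposited list, whose 3 columns give a sequence name and the position where each peak starts and ends, without a header or a value per library. The submitters' processing notes name FastQC, Bowtie2, MACS2, bedtools, featureCounts, edgeR and deepTools and the build hg38. Their roles, versions and thresholds, and how replicates were combined, are not given in the sources used here. The 9 genes and the comparison lists were chosen with earlier results of these data known, and 1 gene of the endoderm list is not reported here. Scaffolds were left out, peaks of the main chromosomes that overlapped by 1 bp or more were merged over all lists, and a list was open at a region where it had a peak. Gene positions and start sequences came from RefSeq on GRCh38.p14, where 5 of the 9 genes had a start entry, and CDX1, GATA4, SOX17 and FOXA2 were read within 1 kb of either gene end. Shares have Wilson intervals at 95%.

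For each gene, the rule for named regions took those over the start and up to 2 regions of each class by summed peak width. The largest width differences between early and day 4 lists were added after the values were seen. The code for the comparison of hPSC with DE was run on simulated data, in 20 runs over 49600 regions. It gave 0 wrong calls and a true value inside all 20 intervals. Each simulated peak covered the middle of its own region, so correct calls followed from the setup. The runs check the merging and counting alone. They held no caller threshold or depth difference and say nothing on the real lists. Python 3.11.15, numpy 2.4.6, pandas 2.3.3, scipy 1.17.1 and matplotlib 3.10.9 were used.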

Additional observations from a re-analysis of the deposited data

Results flagged for a closer look

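The difference between the hindbrain and the telencephalon list had opposite signs in the anterior and posterior lineages at 3 genes and over all 9. It was not tested, since each value is 1 list. How many coding genes in all show such opposite signs was not counted, so 3 of 9 cannot be called many or few. CDX2 had 21 window peaks in aNE_T and 15 in aNE_H but 22 in pNE_T and 29 in pNE_H, a difference between the 2 changes of 13 peaks. FOXA2 had 23 and 13 against 22 and 25, also a difference of 13. SOX17 had 15 and 14 against 14 and 17, a difference of 4. Over the 9 genes the windows had 151 and 145 peaks against 150 and 192, a difference of 48. The whole lists differed in the same way in the posterior lineage, with 215149 peaks in pNE_T and 313095 in pNE_H, while aNE_T had 197832 and aNE_H 203961. Per 100000 list peaks the hindbrain list was the lower one in both lineages: over the 9 genes 76.3 in aNE_T and 71.1 in aNE_H, and 69.7 in pNE_T and 61.3 in pNE_H. CDX2, FOXA2 and SOX17 were likewise lower in both on that scale.

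Peaks on scaffolds were left out of all comparisons, and 141 of the GATA4 window peaks had a counterpart there, on a fix-patch scaffold of chromosome 8.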

How the results depend on the processing

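No paired analysis was possible because the lists hold no value per library, although the labels number the replicates alike in all groups, and no replicate could be left out for the same reason. Of 182 values of 17 results under other settings, 155 stayed within the interval or the factor of 1.5 around the reported value, 25 moved and 2 reversed. A ratio was called reversed only where the range around its reported value excluded 1, so other ratios that crossed 1 count as stayed or moved. The 50% overlap left all ratios of peaks and bases unchanged and was not applied to start peaks. Windows of 500 bp at peak midpoints left the ratios of peaks unchanged. These values count among the 155 although the setting did not alter them. The alternatives of regions more than 1 kb from gene ends and of the windows without GATA4 were chosen after seeing the data. The ratio of aNE to DE window peaks was 0.74 as reported, 1.04 with the widest 167792 peaks of each list and 1.24 with that number drawn at random. For DE over hPSC window peaks the values were 1.19, 0.99 and 0.98 in the same order, so the rise was gone at one list size. The random draw also gave 1.57 for the bases in peaks of aNE over DE, 1.35 for those of pNE over DE, 1.12 for the peaks of pNE over DE, and 1 gene with a start peak in all 10 lists. The hPSC regions kept under it were 49.5% in DE, 61.5% in pNE, 56.9% in aNE_T, 57.8% in aNE_M, 54.1% in aNE_H, 51.4% in pNE_T, 53.2% in pNE_M and 37.6% in pNE_H. The draw took peaks from every list but aNE, the shortest. Of the 9 genes, 6 had a start peak in all 10 lists with 500 bp windows at peak midpoints. With the widest 50% of each list 8 of the 9 did. With peaks required to cover 50% of a region, 70.5% were kept in DE, 61.6% in aNE and in aNE_M, 58.0% in pNE, 60.7% in aNE_T, 56.2% in aNE_H, 55.4% in pNE_T, 44.6% in pNE_M and 63.4% in pNE_H, and 24.8% of early regions were absent later. With 10 kb on each side pNE_H kept 83.3%, with the gene body alone pNE kept 64.3%, and with the widest peaks at one list size pNE_H kept 62.9%. Elsewhere the cause of a move was not tested. The 9 genes kept more than all regions in 9 of 9 lists under the 50% overlap, the 500 bp windows, the widest 50% and the widest peaks at one list size, and in 8 of 9 under the random draw. Read depth is unknown, so a missing peak gives no upper limit.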
